A study of Mus musculus with 31 samples.

Results

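Complement is a cascade of plasma and tissue proteins that tags particles and injured cells. Its transcripts were followed here through 9 genes, which were fixed by name: the C1q chains C1qa, C1qb and C1qc, the thioester components C3 and C4b, the proteases Cfb and Cfi, and the anaphylatoxin receptors C3ar1 and C5ar1. All 9 were among the 23509 genes of the count files, and all 9 passed the filter on low counts that 15185 genes passed.

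Kidney RNA was compared between 12 Pcy/CD1 mice injected with PBS, 14 Pcy/CD1 mice injected with RGLS4326 and 5 male wild-type CD1 mice that received no injection. The study gives its dosed Pcy/CD1 mice as male too. Pcy mice carry a recessive mutation on the CD1 background and develop slowly growing renal cysts, and RGLS4326 is a short chemically modified oligonucleotide that inhibits the microRNA miR-17. RGLS4326 was given subcutaneously at 25 mg kg−1 once a month from 5 weeks of age for 25 weeks, and all kidneys were collected at 30 weeks. The labels give a weekly schedule for PBS in one field and a monthly one for both agents in another; if the interval did differ, it and the agent cannot be told apart. The wild-type mice differed from the PBS group both in genotype and in receiving no injections. No group given a control oligonucleotide was analysed here.

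C1q binds antibody or cell-surface ligands and starts the classical pathway, which cleaves C4 and C2 and then C3. Factor B, the product of Cfb, pairs with cleaved C3 in the convertase of the alternative pathway, whereas factor I, the product of Cfi, cuts cleaved C3 and C4 into inactive forms together with cofactors. The fragments C3a and C5a act on C3ar1 and C5ar1, which are carried mainly by myeloid cells. In the kidney, C1q is known as a product of macrophages and dendritic cells, while tubular epithelium can make C3, C4 and factor B.

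Each mouse had 14892524 to 27459962 gene counts, with group medians of 20562148 for PBS, 19898000.5 for RGLS4326 and 19961466 for wild type. Levels are given as CPM, the count relative to a library size scaled by TMM, and a gene is called changed at an adjusted p under 0.05 with an absolute log2 fold change over 0.5 (edgeR's quasi-likelihood test, Benjamini-Hochberg over all genes tested). RGLS4326-treated mouse 9 stood apart from its group: Lcn2, the tubular injury marker Ngal, read 2.76 CPM there, within the wild-type range of 0.944 to 11.2 CPM and under the next lowest treated mouse at 126 CPM. Among wild-type libraries, those of mice 3 and 4 lay closest (chi-square per gene 2.69, against 16.05 for the next pair), still above sampling noise, and were counted separately. The main differences that involve the treated group are therefore given with and without this mouse, and the remaining values include it. Libraries scaled by total counts in place of TMM moved the median log2 fold change of all genes from 0.0102 to 0.38 in PBS against wild type, and turned 3741 higher and 2701 lower genes into 6285 higher and 1071 lower. The rises of 8 complement genes in cystic kidneys described next were present under both scalings, whereas Cfb was sensitive to this choice.

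In all, 8 of the 9 genes were higher in PBS-treated Pcy/CD1 kidneys than in wild-type kidneys, by 7.88-fold to 16.7-fold, and Cfb, at 0.676 of the wild-type level, was lower. Among all genes tested, 24.6% were called higher and 17.8% lower in this comparison. The median log2 fold change was 3.05 over the 9 genes, 0.55 over 37 other complement genes and 0.0102 over all genes tested. The 9 were chosen with earlier results of these data known, so their median is a description only. For each of the 9, the ranges of the 12 PBS-treated and the 5 wild-type mice did not overlap, as was the case for 42.2% of all genes tested. With RGLS4326, 8 of the 9 stayed far above wild type, and none of the 9 was called different from PBS.

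**Figure D1:**
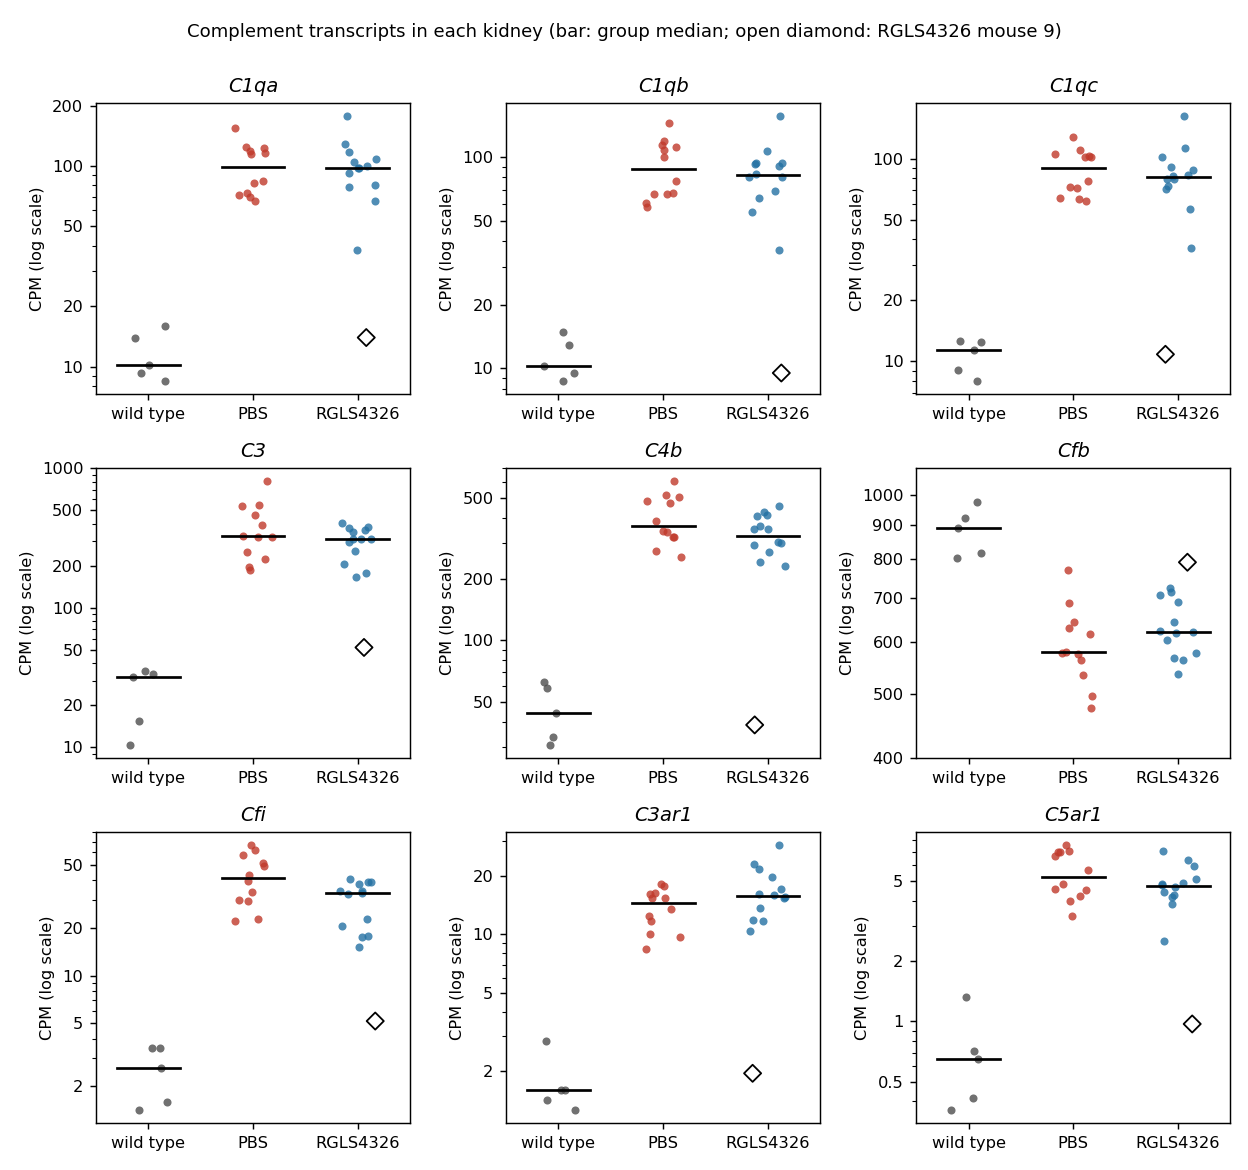
CPM of each complement gene (vertical axis, log scale) in every kidney of wild-type, PBS-treated and RGLS4326-treated mice, with bars at group medians and an open diamond for RGLS4326-treated mouse 9. For Cfi, the 12 PBS-treated mice lie between 22.0 and 66.4 CPM and the 5 wild-type mice between 1.43 and 3.51 CPM, while Cfb is the gene whose wild-type mice lie above both Pcy/CD1 groups.

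The C1q chains are encoded in a row on the minus strand of GRCm38 chromosome 4: C1qb at chr4:136880129-136886187, C1qc at chr4:136889804-136893065 and C1qa at chr4:136895917-136898803, with gaps of 3616 and 2851 bp between them. The wild-type mice 1 to 5 read 10.2, 8.49, 13.96, 15.9 and 9.27 CPM for C1qa. The PBS-treated mice read 67.1 to 155 CPM with a median of 99.2, and the RGLS4326-treated mice 13.96 to 177 CPM with a median of 97.7. Thus every PBS-treated kidney held more C1qa than any wild-type kidney, while the medians of the injected groups were close. C1qa was 8.64-fold higher with PBS than in wild type (log2 fold change 3.11, standard error 0.37, adjusted p = 2.86e-08). C1qb followed at 3.02 (0.38) and C1qc at 3.05 (0.36) on the log2 scale.

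C1qb read 10.3, 8.73, 12.96, 14.8 and 9.51 CPM in the wild-type mice, 58.2 to 145 CPM with PBS (median 88.1) and 9.51 to 156 CPM with RGLS4326 (median 82.0). C1qc read 11.3, 8.02, 12.4, 12.5 and 9.03 CPM in wild type, 62.1 to 128 CPM with PBS (median 89.4) and 10.8 to 162 CPM with RGLS4326 (median 80.7). The chains assemble in equal numbers into the C1q protein. Per length of exons, C1qa made up 40.9% ± 1.74 of the C1q transcripts of the 5 wild-type mice, 42.6% ± 0.783 under PBS (n = 12) and 44.0% ± 1.72 under RGLS4326 (n = 14; mean ± SD). C1qb made up 38.4% ± 0.892, 36.9% ± 1.32 and 35.6% ± 1.58 in the same groups, with 7 of 12 PBS-treated and 13 of 14 treated mice below the lowest wild-type mouse, and C1qc 20.7% ± 1.81, 20.5% ± 0.957 and 20.4% ± 0.853. The differences between groups were not tested. These shares depend on the length used: the union of annotated exons of C1qc is 1931 bp and its longest transcript 1203 bp, whereas C1qa (1040 bp) and C1qb (1088 bp) have 1 length in both. Per length of the longest transcript, a choice made after seeing the data, C1qc made up 29.5% ± 2.29, 29.2% ± 1.22 and 29.2% ± 1.08, and C1qa 36.4% ± 1.86, 37.9% ± 0.692 and 39.2% ± 1.61.

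RefSeq promoters of GRCm38.p6 were matched by symbol for 5 of the 9 genes (C1qb, C1qc, C3, C3ar1 and C5ar1), each from 250 bases before to 50 bases after the transcription start. Those of C1qb and C1qc are shown because these neighbouring genes rose together in cystic kidneys, and that of C3 because of its larger rise. Capitals mark matches to any of 6 motifs searched on both strands: GAGGAAG (the PU.1 core), GAAANNGAA (an interferon-stimulated element), GGNNTTTCC (NF-kB), TTGCNNAA (C/EBP), TTCNNNGAA (STAT) and TATAAA (the TATA box).

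C1qb, chr4:136886151-136886450, minus strand: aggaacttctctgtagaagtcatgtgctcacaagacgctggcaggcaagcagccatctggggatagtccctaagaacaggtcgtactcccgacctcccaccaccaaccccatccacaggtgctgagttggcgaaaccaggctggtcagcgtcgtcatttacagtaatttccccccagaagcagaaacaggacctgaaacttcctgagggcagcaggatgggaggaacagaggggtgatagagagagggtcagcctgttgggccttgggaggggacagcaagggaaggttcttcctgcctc

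C1qc, chr4:136892865-136893164, minus strand: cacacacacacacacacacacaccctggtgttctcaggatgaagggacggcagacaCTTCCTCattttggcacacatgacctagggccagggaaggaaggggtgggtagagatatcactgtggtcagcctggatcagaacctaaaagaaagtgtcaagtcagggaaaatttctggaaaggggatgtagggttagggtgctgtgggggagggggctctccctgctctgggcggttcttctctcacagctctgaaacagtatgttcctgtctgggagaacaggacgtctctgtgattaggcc

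C3, chr17:57228087-57228386, minus strand: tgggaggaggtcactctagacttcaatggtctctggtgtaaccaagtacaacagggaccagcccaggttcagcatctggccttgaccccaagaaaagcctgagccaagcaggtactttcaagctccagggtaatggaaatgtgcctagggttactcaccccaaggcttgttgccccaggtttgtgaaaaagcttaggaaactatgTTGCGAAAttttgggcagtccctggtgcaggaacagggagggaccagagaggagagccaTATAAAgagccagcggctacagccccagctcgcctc

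The C1qb window held none of the 6 motifs, and the C1qc window held the PU.1 core once, on the opposite strand, from base −194 to −188 relative to the start. In the C3 window the C/EBP motif lay at −45 to −38 and the TATA box at 15 to 20, counted from 1 at the annotated start. Of 32851 promoters of the same length, 13.6% held the PU.1 core, 10.8% the C/EBP motif and 13.6% the TATA box. The C3ar1 window held a TATA box and an NF-kB match, and the C5ar1 window held an interferon-stimulated element. The NF-kB motif was found in 5.82%, the interferon-stimulated element in 8.56% and the STAT motif in 8.30% of promoters. These are matches of letters only.

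C3, the component on which all pathways converge, lies on the minus strand at chr17:57203970-57228136. It read 10.3, 15.4, 35.0, 32.0 and 33.5 CPM in the wild-type mice, 187 to 813 CPM with PBS (median 325) and 51.9 to 408 CPM with RGLS4326 (median 310). No treated or PBS-treated mouse fell within the wild-type range, although treated mouse 9 came nearest to it. C3 was 15.1-fold higher with PBS than in wild type (log2 fold change 3.92, standard error 0.43, adjusted p = 1.18e-08). It also varied most among the PBS-treated mice, where the highest was 4.35 times the lowest. The highest was PBS-treated mouse 5, which also read highest of its group for C1qa, C1qb, C1qc, C4b and Cfi.

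C4b, the classical and lectin pathway component, lies at chr17:34728380-34743882 on the minus strand. It read 43.9, 33.6, 62.4, 58.1 and 30.6 CPM in the wild-type mice, 258 to 608 CPM with PBS (median 366) and 38.5 to 459 CPM with RGLS4326 (median 327). Among injected mice, mouse 9 of the treated group alone overlapped with wild type. C4b was 8.81-fold higher with PBS than in wild type (log2 fold change 3.14, standard error 0.34). Its paralog C4a, 65209 bp away, moved in the opposite direction, from a mean of 156 ± 50.4 CPM in wild type to 39.9 ± 8.59 CPM under PBS. Its log2 fold change was −1.97 (standard error 0.19, adjusted p = 3.21e-09). C4b thus took 23.1% ± 3.66 of the counts of both genes in wild type, 90.4% ± 3.66 with PBS and 81.8% ± 17.1 with RGLS4326.

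C4b exceeded C4a in 12 of 12 PBS-treated mice, in 13 of 14 treated mice and in 0 of 5 wild-type mice. The exception was treated mouse 9 with 23.98%, and the lowest PBS-treated mouse stood at 81.7%. Of 75-base windows of the longest C4b transcript, 23.5% also occur in C4a, and only uniquely mapped reads were counted, so both levels are uncertain and rest on the parts in which the paralogs differ. C4a is also known in mice as the sex-limited protein, and the study gives the mice of all groups as male.

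**Figure D2:**
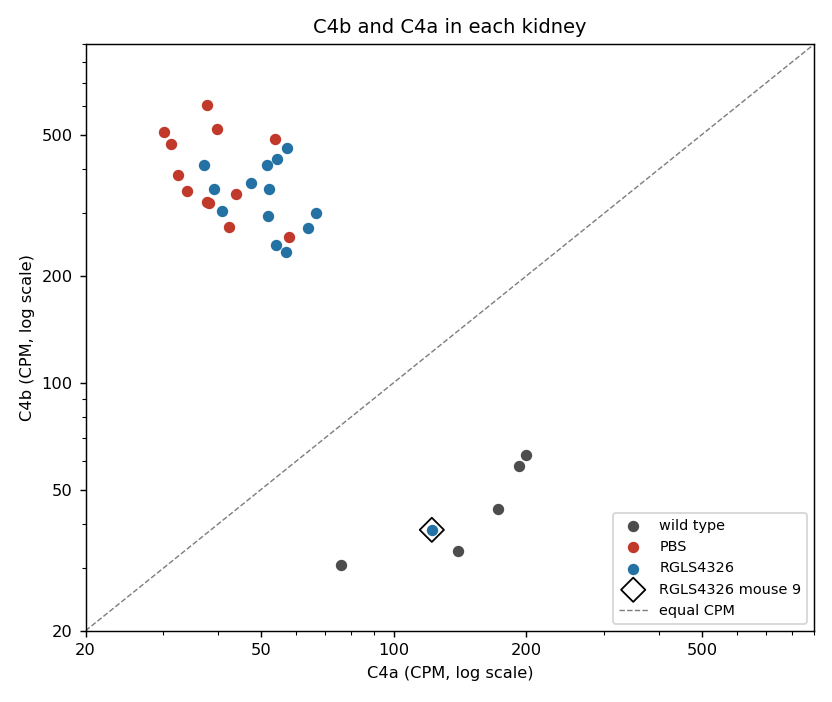
C4a (horizontal axis) and C4b (vertical axis) in CPM, both on log scales, for each kidney, with a dashed line of equal CPM and an open diamond around RGLS4326-treated mouse 9. The 12 PBS-treated mice and 13 of 14 treated mice lie above the line, and the wild-type mice and treated mouse 9 lie under it.

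Cfb lies at chr17:34856374-34862518 on the minus strand, 85 bp from C2 and 32909 bp from C4a. Of 75-base windows of its transcript, 81.2% also lie in the readthrough gene Gm20547, which is no row of the count files. It read 976, 803, 922, 892 and 816 CPM in the wild-type mice, 477 to 769 CPM with PBS (median 579) and 537 to 791 CPM with RGLS4326 (median 622). Here the wild-type mice were highest, and treated mouse 9, with 791 CPM, read highest of its group. Cfb fell by 0.57 on the log2 scale with PBS against wild type (standard error 0.088, adjusted p = 1.62e-06). With total counts the difference was −0.20 (adjusted p = 0.00573), under the size threshold, yet relative to the median of all genes it was −0.58 under both scalings. The proximal tubule markers, which mark the main tubular epithelium of the cortex, moved the same way: 6 of 7 were called lower, and their summed level was 15696 to 16984 CPM in wild type, 5146 to 9859 CPM with PBS and 6666 to 14627 CPM with RGLS4326. Their part in the Cfb result was not tested.

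Cfi lies at chr3:129835884-129875332 on the plus strand. It read 1.59, 1.43, 2.60, 3.51 and 3.49 CPM in the wild-type mice, 22.0 to 66.4 CPM with PBS (median 41.1) and 5.16 to 40.5 CPM with RGLS4326 (median 33.0). The groups of Pcy/CD1 mice lay wholly above wild type. With 16.7-fold, Cfi showed the largest fold of the 9 genes in PBS against wild type (log2 fold change 4.07, standard error 0.42, adjusted p = 5.33e-09). C3 at 3.92 lay within that standard error, so C3 and Cfi cannot be ranked. The wild-type level of Cfi rests on 24 to 58 counts per library.

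C3ar1, the receptor of C3a, lies at chr6:122847138-122856161 on the minus strand. It read 1.42, 1.60, 1.60, 2.85 and 1.26 CPM in the wild-type mice, 8.45 to 18.1 CPM with PBS (median 14.5) and 1.94 to 28.7 CPM with RGLS4326 (median 15.8). C5ar1, the receptor of C5a, lies at chr7:16246743-16259540 on the minus strand and read 0.649, 0.713, 0.414, 0.363 and 1.32 CPM in wild type, 3.37 to 7.55 CPM with PBS (median 5.26) and 0.971 to 7.08 CPM with RGLS4326 (median 4.73). C3ar1 was far less abundant than C3, the source of its ligand, and both receptors separated PBS from wild type without overlap. C3ar1 was 7.88-fold higher (log2 fold change 2.98, standard error 0.37) and C5ar1 7.95-fold higher (2.99, standard error 0.34), the latter against 6 to 22 counts per wild-type library.

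Macrophage markers moved with these genes. Of 10 measured, 8 were called higher in PBS against wild type and Mertk, a receptor for the uptake of dying cells, was lower, with a summed level of 253 to 281 CPM in wild type, 449 to 686 CPM with PBS and 257 to 773 CPM with RGLS4326. Emr1, which encodes F4/80, was higher by 2.19 and Cd68 by 2.21 on the log2 scale, whereas Csf1r, the receptor of CSF-1, already read 123.1 ± 3.61 CPM in wild type and differed by 0.27 (adjusted p = 0.00178). All 6 T cell and all 5 B cell markers were called higher as well. Of 9 neutrophil markers found, 3 could be tested and 1 was higher, and their summed level stayed at 2.20 to 11.1 CPM over all mice. All 6 of 6 fibroblast, 4 of 4 collecting duct and 5 of 5 tubular injury markers were higher. In whole kidney, more cells of a type and more RNA per cell cannot be told apart, and the part of these cells in the complement levels was not tested.

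The treatment comparison asked whether RGLS4326 moved the raised complement transcripts. None of the 9 genes was called in RGLS4326 against PBS by edgeR, where 0.935% of all genes tested were called higher and 1.22% lower. With total counts, the 142 higher and 185 lower genes behind these shares became 88 and 600, and the median of all genes moved to −0.12. At an unadjusted p under 0.05 there was 1 of the 9, Cfi, beside 5595 of all 15185 genes tested. DESeq2 called Cfi as well. Of the 9 fitted differences, 7 were negative, with a median log2 fold change of −0.20 against −0.0043 for all genes. For each of the 9 the ranges of the 2 groups overlapped, and 0% of all genes tested were free of overlap there.

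Cfi averaged 42.2 ± 15.1 CPM over the 12 PBS-treated mice and 27.8 ± 11.1 CPM over the 14 treated mice (mean ± SD). The log2 fold change was −0.60 (standard error 0.22, adjusted p = 0.0567), and −0.51 (adjusted p = 0.0684) without treated mouse 9. DESeq2 gave −0.60 with an adjusted p of 0.0456. Leaving out 1 mouse at a time gave −0.66 to −0.51, with an adjusted p of 0.0304 to 0.115, and under the threshold in 7 of 26 cases. Cfi therefore lay on the edge of the call, and its difference was −0.077, −0.77 and −0.87 within index series 1, 2 and 3, runs of library index numbers taken as technical batches (adjusted p = 1.0, 0.317 and 0.182).

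C3 averaged 381 ± 183 CPM with PBS and 282 ± 99.8 CPM with RGLS4326 (log2 fold change −0.43, standard error 0.25, adjusted p = 0.201). C4b averaged 403 ± 111 and 319 ± 106 CPM (−0.34, standard error 0.21, adjusted p = 0.235). The difference of C3 was −0.34 and that of C4b −0.24 without treated mouse 9. The C1q chains lay closer together, with −0.11 for C1qa, −0.20 for C1qb and −0.13 for C1qc and adjusted p-values of 0.738, 0.535 and 0.662. Without treated mouse 9 these were −0.0144, −0.10 and −0.0401.

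C3ar1 averaged 13.8 ± 3.26 CPM with PBS and 15.9 ± 6.35 CPM with RGLS4326, and C5ar1 5.53 ± 1.45 and 4.56 ± 1.52 CPM. The receptors thus pointed in opposite directions, with log2 fold changes of 0.21 (adjusted p = 0.480) and −0.28 (adjusted p = 0.275), neither of which passed the test, and 0.30 and −0.20 without treated mouse 9. Cfb averaged 596 ± 80.7 CPM with PBS and 641 ± 73.4 CPM with RGLS4326, a difference of 0.11 (adjusted p = 0.247) that became −0.0063 with total counts and 0.0799 without treated mouse 9. Within index series 1, the differences of C1qa, C1qb, C1qc, C3, C4b and C5ar1 were above 0 and those of all 9 genes had an adjusted p of 1.0, so that the sign of these 6 depended on the series. Macrophage markers showed 0 of 10 called in this comparison by edgeR, 2 at an unadjusted p under 0.05, beside 5595 of all 15185 genes tested.

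Of 5 tubular injury markers, 0 were called by edgeR and 2 had an unadjusted p under 0.05, with a median log2 fold change of −0.42, −0.81 for Lcn2 (adjusted p = 0.148) and −0.62 for Krt18, a keratin (adjusted p = 0.0508). Their summed level was 579 to 1926 CPM with PBS and 206 to 1231 CPM with RGLS4326, the lowest being mouse 9. Of 4 collecting duct markers, 1 was called lower, the water channel Aqp2 at −0.56 (adjusted p = 0.0265), and all 4 had an adjusted p under the threshold, with a median of −0.44 and a summed level of 1033 to 2484 CPM with PBS and 638 to 1637 CPM with RGLS4326. Of 7 proximal tubule markers, 0 were called by edgeR and 6 had an unadjusted p under 0.05, with a median of 0.35. Among all 15185 genes tested, 5595 had an unadjusted p under 0.05 and 2402 an adjusted p under 0.05. The part of these markers in the differences of Cfi, C3 and C4b was not tested.

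Compared with wild type, RGLS4326-treated kidneys held more of the same 8 transcripts, by 6.54-fold for C5ar1 to 11.2-fold for C3. In this comparison, which shares the wild-type mice with PBS against wild type and the treated mice with RGLS4326 against PBS, 20.3% of all genes were called higher and 11.3% lower. The log2 fold changes were 3.003 for C1qa, 2.82 for C1qb, 2.92 for C1qc, 3.48 for C3, 2.80 for C4b, 3.46 for Cfi, 3.18 for C3ar1 and 2.71 for C5ar1. Without treated mouse 9 they were 3.10, 2.92, 3.01, 3.58, 2.90, 3.55, 3.28 and 2.80 in the same order. Cfb differed by −0.46 (adjusted p = 4.54e-05), short of the size threshold. The 3 genes C3, Cfb and Cfi did not overlap with wild type, and in the other 6 mouse 9 was the single treated mouse among the wild-type values. Without it, all 9 were free of overlap, and 8 were called. Of all genes tested, 14.8% did not overlap between these groups, and 33.4% without mouse 9.

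Within index series 2, which holds treated mouse 9, 1 of the 9 was called against wild type, C5ar1, with log2 fold changes of the 8 rising genes from 2.02 to 3.02. In that fit 2.45% of all genes tested were called in either direction. Without mouse 9 in that series, 8 of the 9 were called, from 2.28 for C1qb to 3.24 for C5ar1, beside 23.1% of all genes tested. This mouse read lowest of its group in 8 of the 9 genes and highest in Cfb. RGLS4326-treated mouse 2 was the opposite, highest in 6 of the 9, and treated mouse 6 read next to lowest for the C1q chains with 38.1 CPM of C1qa.

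**Figure D3:**
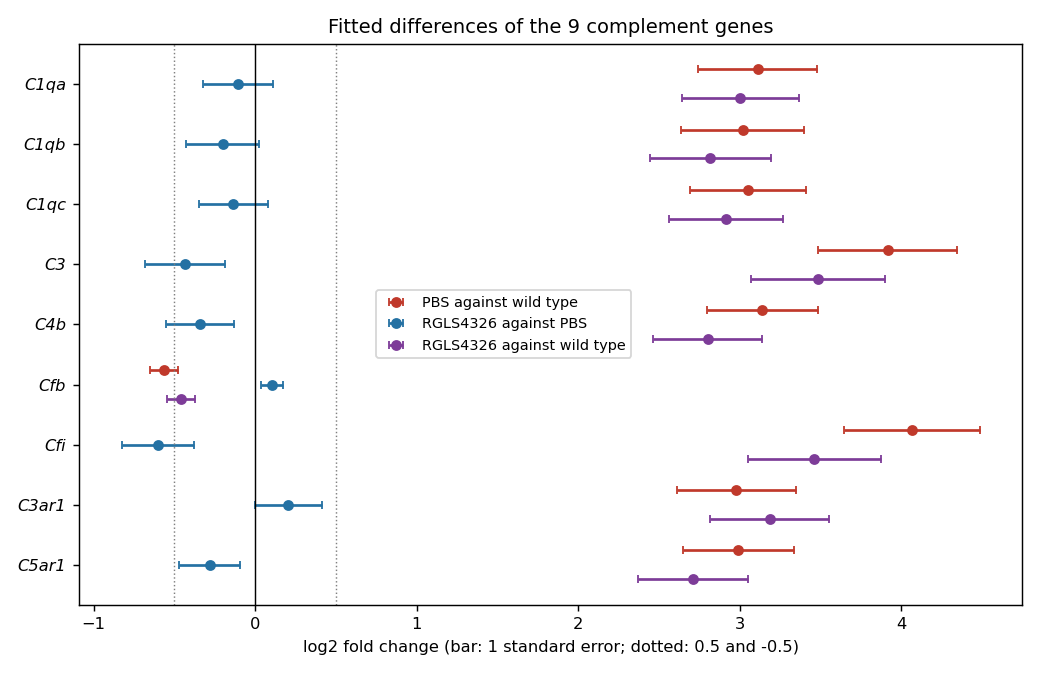
Fitted log2 fold changes (horizontal axis, bars of 1 standard error) of the 9 complement genes for PBS against wild type, RGLS4326 against PBS and RGLS4326 against wild type, with dotted lines at 0.5 and −0.5. The points of both comparisons with wild type lie between 2.71 and 4.07 for 8 genes, while those of RGLS4326 against PBS lie between −0.60 and 0.21.

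The order of abundance was compared per length. Per kilobase of exons, Cfb led in all groups with 312 ± 25.7 CPM per kb in wild type, 211 ± 28.6 with PBS and 227 ± 25.99 with RGLS4326, and it exceeded the next gene in every mouse. In wild type, C1qa (11.1), C1qb (10.3), C4b (8.03), C1qc (5.52) and C3 (4.91 CPM per kb) followed, then Cfi (1.14), C3ar1 (0.405) and C5ar1 (0.270). There 4 pairs of neighbours differed by less than the larger SD: C1qa and C1qb, C1qb and C4b, C1qc and C3, of which C1qc was above in 3 of 5 mice, and C3ar1 and C5ar1, of which C3ar1 was above in 4 of 5. With PBS, C1qa (96.1), C1qb (83.8), C3 (74.1) and C4b (70.8) came before C1qc (45.7), Cfi (19.0), C3ar1 (3.20) and C5ar1 (2.15 CPM per kb). The neighbours C1qa and C1qb, C1qb and C3, and C3 and C4b differed by less than their SD, C3 being above C4b in 7 of 12 mice, whereas Cfi stayed below C1qc and above C3ar1 by more than the SD. The place of C1qc rests on its length: per kilobase of the longest transcript it read 8.87 ± 1.70 CPM per kb in wild type, above C4b at 8.50 ± 2.65, and 73.4 ± 18.5 with PBS, beside C3 at 74.2 ± 35.6 and C4b at 74.9 ± 20.7.

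With RGLS4326, C4b (55.9) and C3 (54.9 CPM per kb) could not be ordered, since C4b was the higher in 7 of 14 mice. The other places were as with PBS, although C1qb and C4b, and C3 and C1qc (41.7 CPM per kb), there also differed by less than their SD. Per kilobase of the longest transcript C1qc came before both, at 66.9 ± 28.96 CPM per kb against 59.2 ± 19.8 for C4b and 54.99 ± 19.4 for C3. C1qa exceeded C1qb in 5 of 5, 12 of 12 and 14 of 14 mice, by less than the SD between mice.

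Ratios within a library depend little on its scaling, and 6 were compared on log2((CPM + 1)/(CPM + 1)) in 3 comparisons by permutation of mice, exact where wild type was involved, with Benjamini-Hochberg adjustment over the 18. Against wild type, 5 of 6 passed with PBS and 6 of 6 with RGLS4326, while 0 of 6 passed in RGLS4326 against PBS (1 at an unadjusted p under 0.05). With a pseudocount of 0.1, C3 to Cfi and C3 to C1qa no longer passed in RGLS4326 against wild type, at 0.15 (adjusted p = 0.350) and 0.64 (adjusted p = 0.0566) in place of 0.50 and 0.68.

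C3 rose more than C1qa, with log2 ratios of 0.956 ± 0.640 in wild type and 1.84 ± 0.328 with PBS (mean ± SD, difference 0.88, exact permutation p = 0.00356, adjusted p = 0.00711). C3 and its cleaving regulator Cfi rose by similar amounts, 2.80 ± 0.434 in wild type and 3.09 ± 0.275 with PBS (difference 0.29, exact permutation p = 0.134, adjusted p = 0.172). With RGLS4326 the ratio of C3 to Cfi was 3.31 ± 0.210, above PBS by 0.22 (permutation p = 0.0343, adjusted p = 0.0515). The call depended on the setting: the adjusted p was 0.0213 with resampling within index series and 0.0346 with a pseudocount of 0.1. Without treated mouse 9 the difference was 0.23 (adjusted p = 0.0404), and the ratio of C3ar1 to Csf1r also passed, by 0.33 (adjusted p = 0.0125). With that mouse, the latter differed by 0.17 (adjusted p = 0.489).

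C1qa, C3ar1 and C5ar1 each rose relative to Csf1r in PBS against wild type, by 2.73, 2.16 and 1.68 (exact permutation p = 0.000323 and adjusted p = 0.000774 for each). This p is the smallest that 12 against 5 mice allow. With a pseudocount of 0.1 the differences were 2.83, 2.66 and 2.64, so that the sizes of the 3 genes cannot be ranked. These ratios depend on the marker. Csf1r itself differed by 0.27, the smallest difference above 0 among the 10 macrophage markers, while Fcgr1, an Fc receptor of macrophages, was higher by 3.43 on the log2 scale, more than C1qa (3.11), C3ar1 (2.98) or C5ar1 (2.99). Ratios to Fcgr1 were not tested. The ratio of C3 to C1qa in RGLS4326 against wild type was 0.68 higher (adjusted p = 0.0374), and lost the call without wild-type mouse 1, 2 or 4, with an adjusted p of 0.130, 0.0922 and 0.0647, as it did with the smaller pseudocount.

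Of 43 other complement genes listed by role, 37 passed the filter. Fcna, Fcnb, Colec10, C8b, Daf2 and Vsig4 did not. In PBS against wild type, 19 were called higher and 8 lower, with a median log2 fold change of 0.55, beside the 24.6% higher and 17.8% lower among all genes. With total counts these were 24 higher and 4 lower: C8g (−0.31), Cd46 (−0.29), Cr2 (−0.24) and Mbl2 lost the call, and C2, Cd59a, Cd93, Colec11 and Csmd1 gained one. The classical proteases rose with their C1q partner: C1ra by 1.69, C1rb by 1.79, C1s by 1.53 and Gm5077, listed today as C1s2, by 1.15 on the log2 scale. C2, next to Cfb, differed by 0.13 (adjusted p = 0.174). Gm5077, C1s and the C1r genes are close paralogs, so their separate levels are uncertain.

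In the lectin pathway the proteases parted: Masp1 rose by 2.41 from 0.383 ± 0.147 to 2.05 ± 0.656 CPM, and Masp2 fell by 4.38 from 3.53 ± 1.56 to 0.166 ± 0.115 CPM. Mbl2, a mannose-binding lectin, was lower by a log2 fold change of −1.70 (adjusted p = 0.0441), a call kept in 8 of 17 fits that left out 1 mouse and lost without PBS-treated mouse 2, 3, 5, 8, 9 or 12 or wild-type mouse 3, 4 or 5 (adjusted p up to 0.169). Hepatocyte markers were lower in the same comparison, 5 of 9 called lower and 1 higher with a median log2 fold change of −1.59, and their part in the values of Masp2 and Mbl2, genes made mainly in liver, was not tested. Properdin, Cfp, which stabilises the alternative convertase, rose by 1.504. Factor D, Cfd, was called higher, with a standard error of 1.68 around 3.72 and PBS-treated mice spread from 0 to 52.4 CPM around a median of 0.363 CPM. Its call was kept in 9 of 17 such fits and lost without PBS-treated mouse 3, 5, 6 or 9 or wild-type mouse 1, 3, 4 or 5 (adjusted p up to 0.107).

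Of the terminal components that form the membrane pore, Hc, which encodes C5, rose by 1.48, C6 by 0.89 and C7 by 0.55 on the log2 scale, whereas C8a fell by 1.86 (63.8 ± 4.28 to 17.6 ± 6.02 CPM) and C8g by 0.66. C9 differed by −0.78 (adjusted p = 0.104). For Hc and C6, 10 of 12 PBS-treated mice overlapped with wild type, and leaving out wild-type mouse 5 the differences were 2.71 and 1.44. C7 lost the call without PBS-treated mouse 4 or 11 or wild-type mouse 2 or 3 (0.46, 0.47, 0.46 and 0.55). Among regulators in plasma, Serping1, the C1 inhibitor, rose by 1.61 and Clu, clusterin, by 1.75. On membranes, Susd4 and Cd59b, which blocks the pore, rose by 0.87 and 0.86, and Cd55 and Cd46, which disable convertases, fell by 0.90 and 0.65, though 12 of 12 PBS-treated mice lay within the wild-type range for Cd55 and 7 of 12 for Cd46, Cd46 losing the call without wild-type mouse 5 (−0.50, adjusted p = 0.0512). Among receptors, C5ar2 rose by 2.77, the integrin chains of complement receptors 3 and 4 by 2.83 (Itgam), 1.54 (Itgax) and 1.35 (Itgb2), and Cr2, the B cell receptor of C3d, fell by 0.61, or by 0.47 without wild-type mouse 1, where it was not called (adjusted p = 0.0919).

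In RGLS4326 against PBS, 3 of these 37 were called, C4a and C8a higher and Masp1 lower, beside 0.935% and 1.22% of all genes. C4a went from 39.9 ± 8.59 to 56.8 ± 20.6 CPM (log2 fold change 0.51, standard error 0.16, adjusted p = 0.0312), C8a from 17.6 ± 6.02 to 25.4 ± 11.1 CPM (0.53, standard error 0.18, adjusted p = 0.0423) and Masp1 from 2.05 ± 0.656 to 1.41 ± 0.413 CPM (−0.54, standard error 0.17, adjusted p = 0.0358). This comparison shares the PBS-treated mice with that against wild type. Treated mouse 9 read 122 CPM for C4a and 61.4 CPM for C8a, the highest of its group. Without it, 0 of the 37 were called, with 0.38 (adjusted p = 0.0534) for C4a, 0.36 (adjusted p = 0.0790) for C8a and −0.48 (adjusted p = 0.0557) for Masp1. With total counts C4a and C8a also lost the call (0.39 and 0.41) and Mbl2 gained one. The number called was also 0 without PBS-treated mouse 2, 3, 5, 9 or 10 or treated mouse 8 or 13.

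Among 9 hepatocyte markers, 3 were called higher in RGLS4326 against PBS, beside 0.935% of all genes tested. Their summed level was 30.4 to 312 CPM in wild type, 15.4 to 111 CPM with PBS and 38.5 to 556 CPM with RGLS4326. Treated mouse 9 was the highest, and treated mouse 1 came next at 209 CPM. How many of these markers are called without mouse 9 is not given here. Masp2 and Mbl2 had log2 fold changes of 1.68 (adjusted p = 0.0627) and 1.60 (adjusted p = 0.0555). Without mouse 9, Masp2 stood at 0.34 (adjusted p = 0.539) and Mbl2 did not pass the filter. The part of such RNA in these results was not tested.

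**Figure D4:**
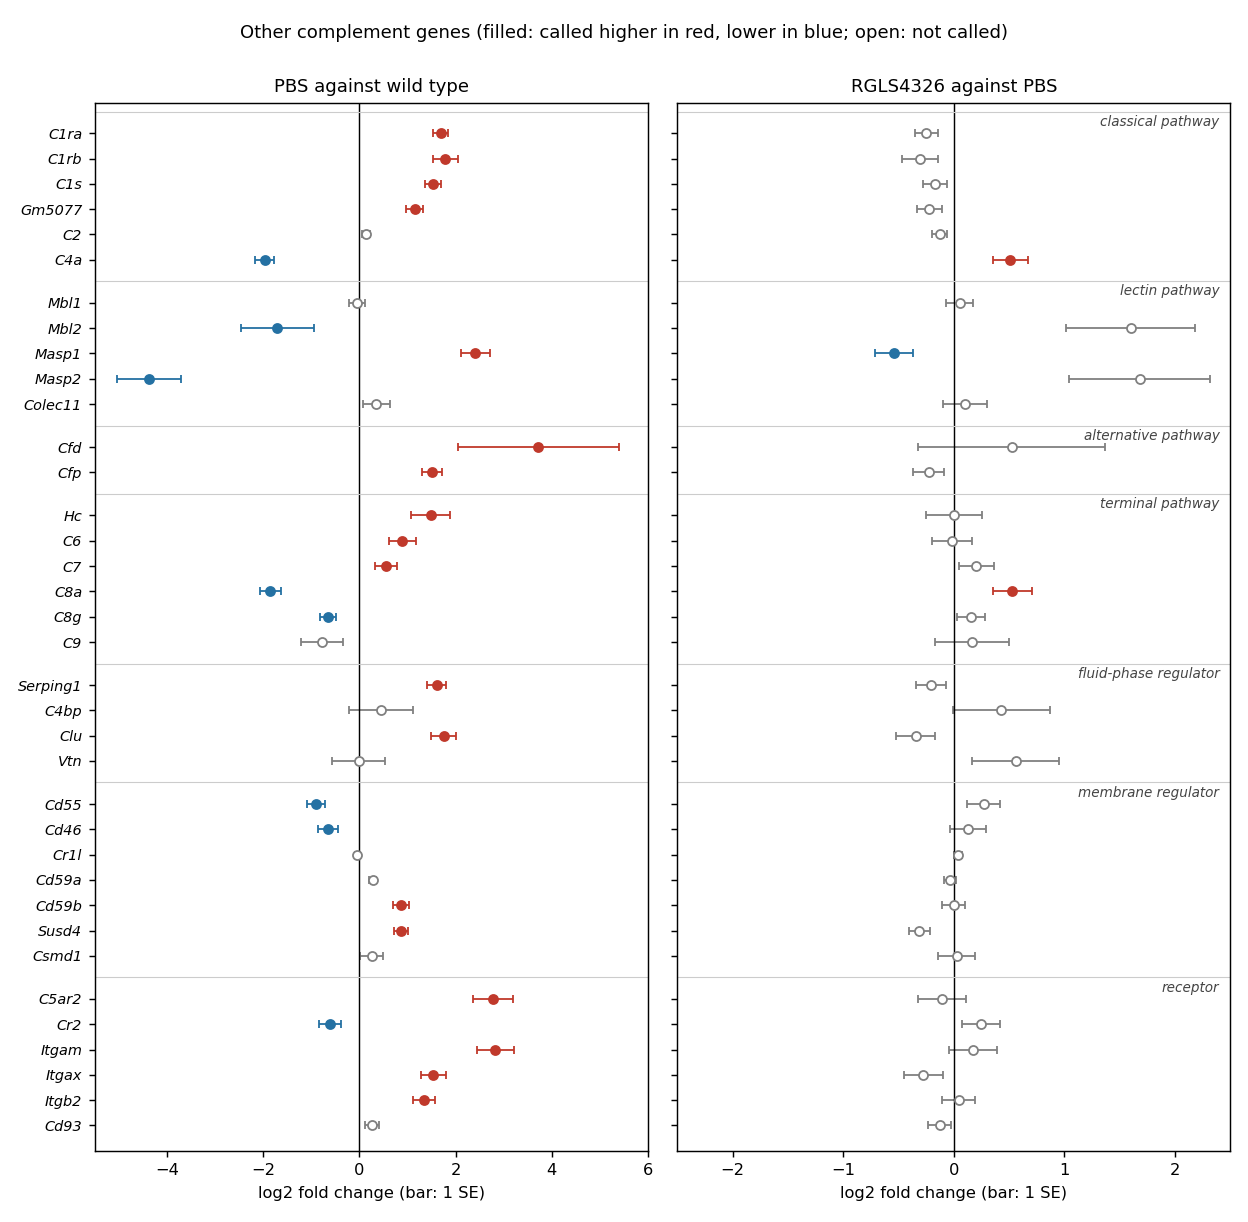
Log2 fold changes with bars of 1 standard error for 36 other complement genes grouped by role, for PBS against wild type on the left and RGLS4326 against PBS on the right, with the horizontal axes differing in range. Filled points are called, 26 of 36 on the left and 3 of 36 on the right.

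Within a treatment group, mice differed in how much complement transcript they held, and the 9 genes did not vary independently. Between pairs of the 8 genes other than Cfb, Pearson's r of log2(CPM + 1) was 0.41 to 0.99 with a median of 0.83 over the 12 PBS-treated mice, and pairs with Cfb ran from −0.72 to 0.0394. These values share libraries and their scaling and are given as a description. Each gene was then related to the mean log2(CPM + 1) of the 10 macrophage markers and to that of Lcn2 in each group, 36 relations in all, of which 34 passed by r and 30 by rank (permutation p, Benjamini-Hochberg over the 36 for each measure). The share of all genes that would pass such relations was not computed, so these counts cannot be read as particular to complement. The index series, runs of library index numbers, held 4 or 5 mice of a group each, too few for values within them. With values centred within index series, 34 passed by r and 33 by rank. Leaving out the 2 mice farthest from the median on the horizontal axis, 23 passed by r and 21 by rank.

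With PBS, C1qa rose with the macrophage markers (r = 0.887, permutation p = 0.00049, rho = 0.790, permutation p = 0.00319, adjusted p = 0.000882, n = 12), and r was 0.892 without the 2 farthest mice. C5ar1 did so at r = 0.921 (rho = 0.867, permutation p = 0.00011 and 0.00046, adjusted p = 0.000264) and 0.910 without those mice. The C1q chains also rose with Lcn2, at r = 0.903 for C1qa, 0.937 for C1qb and 0.892 for C1qc, with a higher rho than C3 for C1qa (0.965) and C1qb (0.986). By Pearson's r, C3 followed Lcn2 most closely (r = 0.955, rho = 0.944, permutation p = 1e-05 and 2e-05, adjusted p = 4e-05, the former being the smallest p that these resamples can give) and kept r = 0.968 without the 2 farthest. Its relation to the macrophage markers passed as well (r = 0.778, rho = 0.762, adjusted p = 0.00489 by permutation), as did those of C5ar1 (r = 0.773, rho = 0.846, adjusted p = 0.00519 by permutation) and C3ar1 (r = 0.60004, rho = 0.636, adjusted p = 0.0424 by permutation) to Lcn2. The relations of the receptors no longer passed by r without the 2 farthest mice. C4b also tracked Lcn2 (r = 0.890, rho = 0.825, adjusted p = 0.00036 by permutation), whereas its relation to the macrophage markers passed by rank and not by r (r = 0.534, rho = 0.615, permutation p = 0.0754 and 0.0373, adjusted p = 0.0776 and 0.0448). With values centred within index series, the latter relation passed by neither (rho = 0.399, adjusted p = 0.206 by permutation). Cfb fell as the macrophage markers rose (r = −0.674, rho = −0.580, permutation p = 0.0148 and 0.0507, adjusted p = 0.0166 and 0.0588), a relation that passed by r alone and no longer did so without the 2 farthest mice (r = −0.608, adjusted p = 0.0770), and its relation to Lcn2 did not pass (r = −0.335, adjusted p = 0.289 by permutation).

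In the treated group mouse 9 lies far from the others on both axes, so r is given over the other 13 mice. There C1qc and the macrophage markers gave r = 0.970 (rho = 0.813, permutation p = 1e-05 and 0.00116, adjusted p = 9e-05) and Cfi and Lcn2 r = 0.955 (rho = 0.890, permutation p = 2e-05 and 0.00017, adjusted p = 0.00012). C3 and C4b went with Lcn2 (r = 0.898 and 0.884, adjusted p = 0.00018 and 0.000309 by permutation) and did not pass by r with the macrophage markers (r = 0.548 and 0.497, adjusted p = 0.0621 and 0.0870 by permutation), although C3 did by rank (rho = 0.654, adjusted p = 0.0271 by permutation). In these 13 mice r was 0.881 for C3ar1 and 0.866 for C5ar1 against the macrophage markers and 0.435 and 0.325 against Lcn2, the latter pair not passing (adjusted p = 0.145 and 0.289 by permutation). With mouse 9 included, all 18 relations of this group passed by r and 14 by rank. Those of C4b and Cfi to the macrophage markers (rho = 0.468 and 0.473, adjusted p = 0.101 and 0.0998 by permutation) and of C3ar1 and C5ar1 to Lcn2 (rho = 0.516 and 0.301, adjusted p = 0.06999 and 0.298 by permutation) passed by r alone. Centred within index series, these relations passed by rank as well (adjusted p = 0.0377, 0.0253, 0.00802 and 0.0171 by permutation). Without mouse 9, 13 passed by each measure, Cfb and Lcn2 by r alone and C3 and the macrophage markers by rank alone. Whether the 2 relations of a gene differ from each other was not tested.

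**Figure D5:**
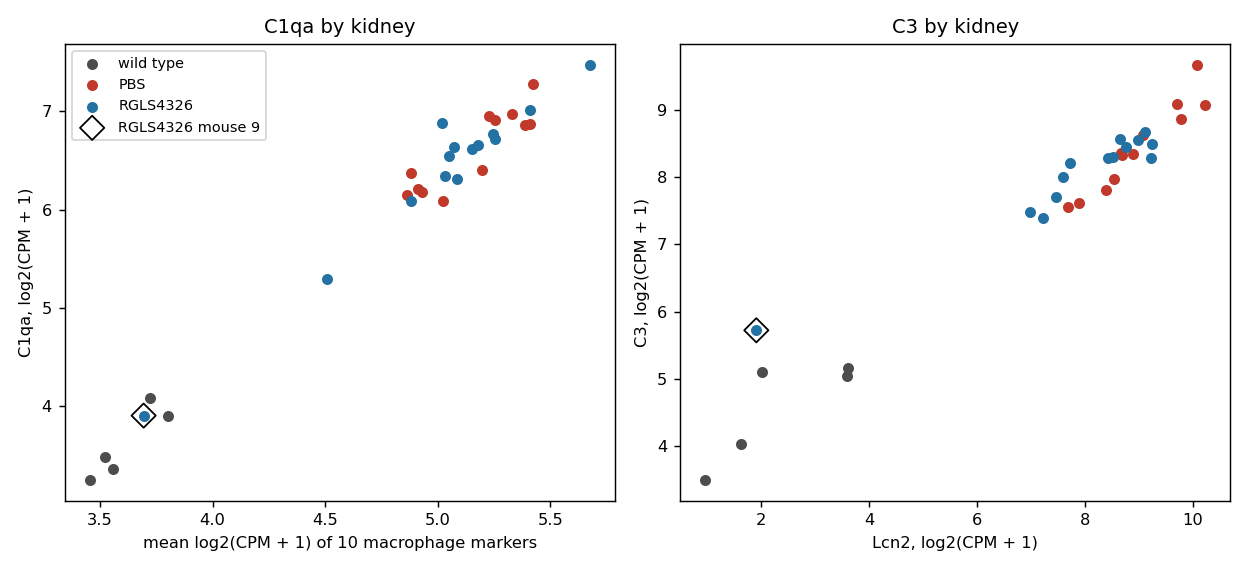
C1qa against the mean of 10 macrophage markers (left) and C3 against Lcn2 (right), each as log2(CPM + 1), with a point for each of the 31 kidneys coloured by group and an open diamond around RGLS4326-treated mouse 9. The PBS-treated points rise from left to right in both panels, with r = 0.887 and r = 0.955.

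The genes whose pattern was most like each of the 9 were sought among the 13784 genes that averaged 1 CPM or more, over the 26 Pcy/CD1 mice with values centred within their group. The C1q chains were most like each other, with r = 0.994 between C1qa and C1qb and 0.993 between C1qa and C1qc, and the next was Laptm5, a lysosomal gene of blood cells, at 0.991 with C1qa and C1qb, or Fcer1g, the common chain of Fc receptors, at 0.990 with C1qc. C3ar1 was closest to Itgam (0.974), Pik3ap1 (0.971) and Pik3r5 (0.969), and C5ar1 to Csf2ra (0.947), Pik3cd (0.947) and Pld4 (0.945). Itgam is itself a chain of complement receptor 3.

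C3 lay nearest to Aoc1, an amine oxidase of tubular epithelium (0.973), Cp, ceruloplasmin (0.966), and Mybpc2 (0.960). C4b lay nearest to S100a11 (0.969), Lcn2 (0.968) and Pla2g5 (0.964), and Cfi to Spp1, osteopontin (0.969), Cdh3, P-cadherin (0.961), and Dbndd2 (0.959). Cfb stood alone in lying with Lgmn, the lysosomal protease legumain (0.894), Pigo (0.883) and Fuca1, a lysosomal fucosidase (0.882). Without treated mouse 9, over 25 mice, these 27 values ran from 0.861 for Cfb and Fuca1 to 0.987 for C1qa and C1qb. The order within some genes changed. For C3ar1, Pik3ap1 (0.960) then lay above Itgam (0.927), for C3, Cp (0.9694) above Aoc1 (0.9682), and for C4b, Pla2g5 (0.911) above Lcn2 (0.882). These likenesses are descriptions over mice that share libraries.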

How the data were processed

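Kidney RNA of 31 mice was sequenced from polyA-selected, stranded libraries as paired-end 75-base reads. According to the methods and the submitters' processing notes, the authors checked reads with FastQC 0.11.2, trimmed them with Trim Galore, aligned them to GRCm38 with STAR and counted uniquely mapped reads per gene with HTSeq 0.6.1; the strand setting and gene annotation are not given in the sources used here. The deposited values are whole-number counts per gene, and their special rows (8.39% to 10.1% without a feature, 0.305% to 0.411% ambiguous, 17.8% to 21.2% not unique, of all rows of a file) were left out.

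Counts of 15185 genes that passed filterByExpr were fitted over all 31 mice with edgeR 4.0.16 in R 4.3.3 (TMM, quasi-likelihood test, Benjamini-Hochberg). Standard errors were taken as the log2 fold change over the square root of F. CPM used TMM-scaled library sizes, and log2 values a pseudocount of 1. Ratios and correlations were tested by permutation of mice, two-sided, exact where a group held under 10 mice and otherwise with 100000 resamples. All 9 complement genes were named, with any listed complement gene that passed the filter, marker genes whose level stands beside a result, and the 3 genes most like each of the 9. The members and lists were chosen with earlier results of these data known. The p-values set differences between groups, or relations within a group, against the variation between mice. The fit was tested on simulated data. DESeq2 1.42.0, other scalings and filters, index series, a replicate block and leaving out each mouse were tried as alternatives. Of the listed complement genes and the ratios, 1 each is counted in the totals but not reported here.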

Additional observations from a re-analysis of the deposited data

Results flagged for a closer look

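C3ar1 in wild type was picked out because 1 mouse lay far from the others: wild-type mouse 4 read 2.85 CPM and the other 4 mice 1.26 to 1.60 CPM, so that its gap made up 0.785 of the range, more than Dixon's critical value for 5 mice. All 9 complement genes were examined in this way, and chance picks out about 1 in 20 groups. All PBS-treated mice stood above this mouse for C3ar1, the lowest at 8.45 CPM.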

How the results depend on the processing

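Against wild type, the 9 genes called with PBS numbered 9 in every fit that left out 1 mouse, and the 8 called with RGLS4326 numbered 8, while within index series 2 the latter count was 1 and that of the other complement genes 7 (25 in the fit over all mice). In RGLS4326 against PBS, 0 of the 9 became 1 (Cfi) with DESeq2, with total counts, and without PBS-treated mouse 1, 4 or 8 or treated mouse 2, 5, 11 or 12, a range of 0 to 1. The 3 other complement genes called there became 5 with DESeq2, 1 with index series as a covariate, 0 within index series 1, 2 or 3, 0 within series 2 without treated mouse 9, and 0 to 5 leaving out 1 mouse, with 5 without PBS-treated mouse 4 or treated mouse 2 or 5 and 1 without treated mouse 3 or 10. Against wild type the same list ranged from 24 to 27 with PBS and 21 to 26 with RGLS4326.

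Same-numbered mice are different animals and on average shared no deviation from their group means. For the 12 pairs of PBS and RGLS4326, r averaged −0.085 and ran from −0.47 to 0.51, with 4 over 0.1. With the replicate block, 0 of the other complement genes were called in RGLS4326 against PBS.

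Within index series 1, RGLS4326 against PBS turned to 0.30 for C1qa, 0.26 for C1qb, 0.30 for C1qc, 0.15 for C3, 0.029 for C4b and 0.023 for C5ar1, and Cfb turned to −0.0063 with total counts. Of the ratios in that comparison, 1 passed with a pseudocount of 0.1, 1 with resampling within index series and 2 without treated mouse 9, where C1qa to Csf1r turned to 0.026, and C3 to Cfi in PBS against wild type turned to −0.086 with a pseudocount of 0.1. The causes were not tested. Among the 9 genes, C5ar1, with 6 to 22 counts in wild-type libraries, is limited most by depth.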
